A study of Oryza sativa Japonica Group with 8 samples.

Results

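OsDCL3b is a Dicer-like gene of rice, and its expression was reduced in the dcl3b knockdown mutant that this study set against wild type. It was taken by its locus ID, LOC_Os10g34430, which the files describe as Dicer. The locus is 1 of 1174 genes in the authors' lists of changed mRNAs and stands among the 530 listed as lower in the knockdown. It is also named by 2 of 124 listed small RNA windows, 1 for 21-nt and 1 for 24-nt small interfering RNA (siRNA). Young panicles, the flower-bearing shoots, were taken before heading from japonica rice grown in a paddy field. The mRNA groups were 3 libraries of the dcl3b knockdown mutant and 3 of wild type, and each genotype had 1 small RNA library. The labels do not state how expression was lowered, how many lines were used or whether libraries came from separate plants, so the spread between libraries may be technical.

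Dicer-like proteins are RNase III enzymes that cut double-stranded RNA into short duplexes, whose strands then guide Argonaute proteins to RNAs of matching sequence. In plants the size of the product differs between members of the family: DCL4 makes 21-nt siRNAs, and DCL3-type enzymes make 24-nt siRNAs. Rice has a pair of DCL3-type genes. OsDCL3a is known for the 24-nt siRNAs of repeats that direct DNA methylation, and OsDCL3b for 24-nt phased siRNAs of the young panicle. No sequence of the gene or of the siRNAs was held, and none is shown.

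The replicates 2 stood nearer to the other genotype in much of the table: among the 530 genes listed as lower, replicate 2 gave the highest knockdown value in 356 and the lowest wild type value in 291. For mRNA no read totals were held, so depth is unknown. The small RNA values were taken as reads per 10000000 library reads. On that reading they stepped in whole reads. They correspond to a total of 7358369 to 7358373 reads in the knockdown library and 8037509 to 8037518 reads in the wild type library.

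The knockdown was first checked in the mRNA of its target. OsDCL3b mRNA stood at 0.39, 0.50 and 0.44 FPKM (a level scaled by transcript length and library depth) in knockdown replicates 1, 2 and 3, against 0.97, 0.98 and 0.88 FPKM in wild type replicates 1, 2 and 3. All 3 knockdown libraries lay below all 3 wild type libraries, and replicate 2 was the highest of each genotype. Such a separation, knockdown below wild type, was found in 89.1% of the 530 genes listed as lower, so it is common among them. The knockdown averaged 0.443 ± 0.0551 FPKM and wild type 0.943 ± 0.0551 FPKM (SD, n = 3 each). The level in the knockdown was thus 47.0% of that in wild type, and transcript of the gene remained in every knockdown library.

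**Figure D1:**
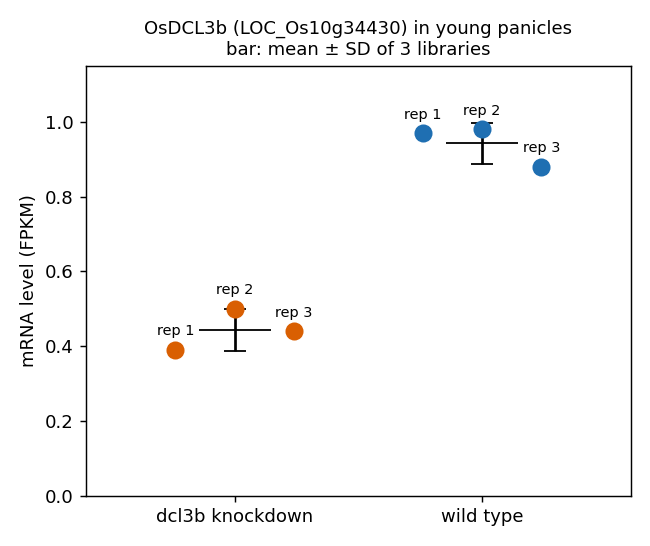
The mRNA level of OsDCL3b in FPKM (vertical axis, from 0) in the 3 dcl3b knockdown libraries and the 3 wild type libraries. Points are libraries, and the horizontal line with bars is the mean ± SD. The knockdown libraries lie between 0.39 and 0.50 FPKM, all below the wild type libraries, which lie between 0.88 and 0.98 FPKM.

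Pairing each knockdown library with each wild type library gave ratios from 39.8% to 56.8%. The lowest wild type value was 1.76 times the highest knockdown value. Without replicate 2 of either genotype the knockdown stood at 44.9% of wild type. The authors' deposited table gave the gene a log2 fold change of -1.09, a p-value of 4.79e-09 and an adjusted p of 5.49e-07. An exact permutation test of the FPKM values, two-sided, gave p = 0.1, which is the smallest p that 3 libraries against 3 allow. The deposited values are rounded to 2 decimals, which is up to 1.28% of the lowest of these levels.

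The deposited p-values and adjusted p-values of the 10 most significant listed genes with a p above 0 correspond to 34271 genes tested, a number inferred here. Of these, 1.55% were listed as lower and 1.88% as higher. The gene was listed because it passed the authors' threshold, so its call adds nothing beyond that test. A re-test with limma on log2(FPKM + 0.5) over the 1174 listed genes gave OsDCL3b a log2 difference of -0.61 ± 0.0924 (SE, n = 3 each) and an adjusted p of 0.00369. With 0.1 in place of 0.5 FPKM added, the log2 difference was -0.94 (limma adjusted p = 0.00504), since the added amount is large beside a level under 1 FPKM. Over all 10 alternatives run, the limma adjusted p of OsDCL3b lay between 0.00349 and 0.0270. The re-test called 84.9% of the listed genes, and 90.9% of those listed as lower. These 997 calls became 653 without knockdown replicate 1, 659 without knockdown replicate 3 and 629 without wild type replicate 3. With the replicate number as a block they became 630. OsDCL3b passed in each of these fits, which reuse the values that put it on the list.

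The reduction of OsDCL3b was shallow and even among the genes listed as lower. By the fold change of the authors' deposited table it ranked 478 of 530, so that 477 genes had a deeper change and 52 a shallower one. The list ran from -6.30 to -1.001 with a median of -1.44. No gene with a change shallower than -1.001 was listed as lower, and no label or header states the filters. The rank therefore holds within the list and does not place OsDCL3b among all genes that were lower. By p-value in the same deposited table it ranked 83 of 530. Its level was low, and 194 of the 530 had a lower wild type mean. The median of the list was 0.703 FPKM in the knockdown and 1.83 FPKM in wild type.

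The replicates of OsDCL3b lay close together. Its coefficient of variation (SD over mean) was 12.4% in the knockdown and 5.84% in wild type, against medians of 39.8% and 23.6% over the list. In the knockdown 39 of the 530 genes had a smaller one, and in wild type 27 did. The separation of the genotypes, as the lowest wild type over the highest knockdown value, was 1.76 for OsDCL3b, with a median of 1.53 over the list and a larger value in 158 genes. The list was selected on the same values, and these ranks are a description.

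**Figure D2:**
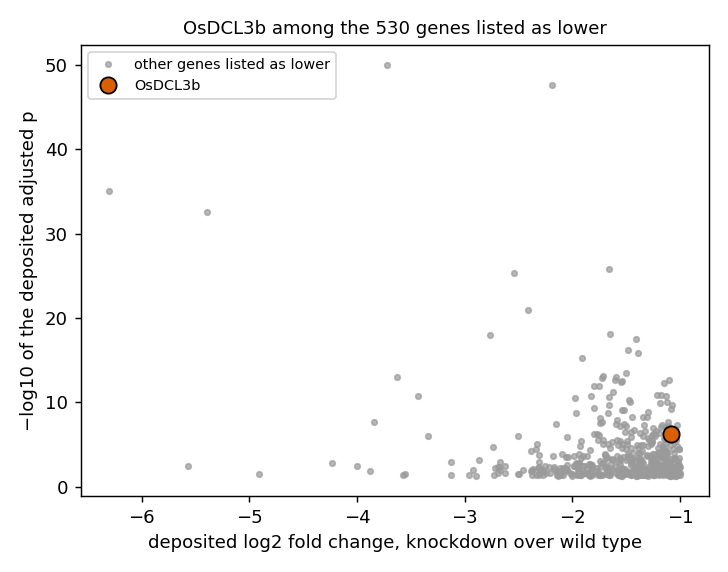
Each of the 530 genes listed as lower, by log2 fold change (knockdown over wild type, horizontal axis) and −log10 of the adjusted p (vertical axis), both from the authors' deposited table. OsDCL3b, the large point, lies at -1.09, near the shallow end of the list at -1.001, with an adjusted p of 5.49e-07.

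Among genes of a like level the same contrast was seen. Of the 48 other genes listed as lower with a wild type mean within 1.2 times that of OsDCL3b, 44 had a deeper fold change in the authors' deposited table and 0 had a smaller p-value. The median of these 48 genes in that deposited table was -1.46. Their median coefficient of variation was 43.0% in the knockdown and 21.8% in wild type. FPKM is scaled by transcript length, so genes of a like FPKM can differ in read number. The read numbers were not held, and their part in the spread and the p-values was not tested.

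The 5 genes nearest in wild type mean show the range. LOC_Os08g32330, described as an expressed protein, was at 0.36, 0.50 and 0.43 FPKM in the knockdown and 1.03, 0.72 and 1.07 FPKM in wild type, nearly the same means as OsDCL3b with a wider wild type spread. The peroxidase gene LOC_Os07g48020 was at 0.68, 0.38 and 0.22 FPKM in the knockdown and 0.97, 1.03 and 0.82 FPKM in wild type. Peroxidases of plants oxidise phenolic compounds, many of them in the cell wall. The F-box gene LOC_Os08g34860, of a family that selects proteins for degradation, was at 0.33, 0.43 and 0.24 FPKM in the knockdown and 0.80, 1.1 and 0.91 FPKM in wild type. Deeper reductions were listed for the co-chaperone gene LOC_Os12g44260 (DnaJ), at 0.197 ± 0.0751 FPKM in the knockdown and 0.947 ± 0.297 FPKM in wild type (SD, n = 3 each), and for the GDSL-like lipase gene LOC_Os03g25010, at 0.167 ± 0.133 FPKM in the knockdown and 0.95 ± 0.255 FPKM in wild type. The genotypes did not overlap in any of these 5 genes, a separation found in 89.1% of the 530 genes listed as lower.

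**Figure D3:**
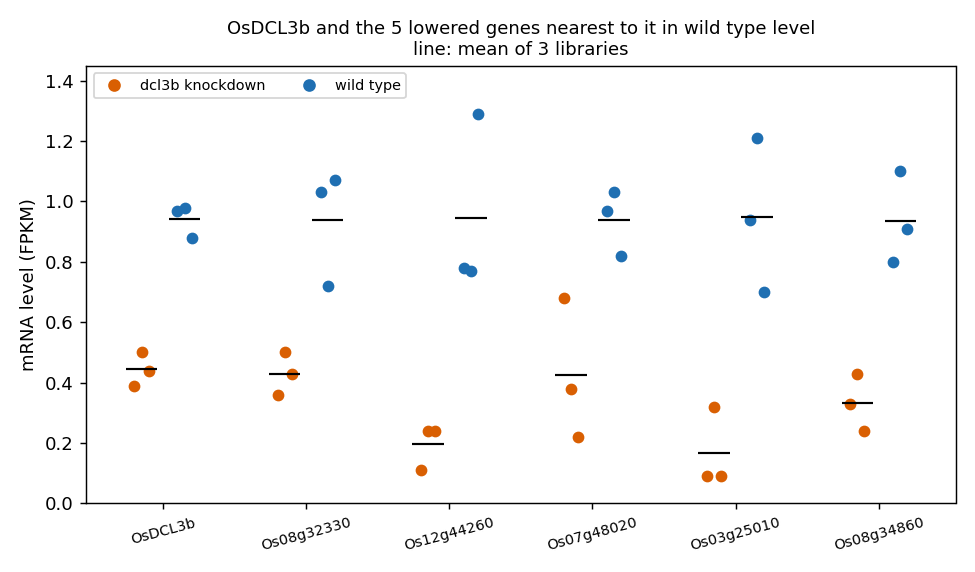
The mRNA level in FPKM (vertical axis, from 0) of OsDCL3b and of the 5 genes listed as lower that are nearest to it in wild type mean. Points are libraries, knockdown left and wild type right for each gene, and lines are means of 3 libraries. The points of OsDCL3b lie close together within each genotype, at 0.39 to 0.50 FPKM in the knockdown and 0.88 to 0.98 FPKM in wild type.

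By fold change its neighbours were of several kinds. The 3 genes just deeper in the authors' deposited table (log2 fold change -1.09 each) were the nuclear factor Y subunit gene LOC_Os08g09690, the undescribed LOC_Os05g05550 and the HOTHEAD-like gene LOC_Os10g38050. Nuclear factor Y is a transcription factor that binds CCAAT boxes. The 3 just shallower (-1.08 each in the authors' deposited table) were the F-box gene LOC_Os12g41450, the undescribed LOC_Os03g17260 and the ATPase gene LOC_Os09g27340. Adjusted p-values of these 6 genes in the authors' deposited table ran from 6.09e-10 for LOC_Os08g09690 to 0.0459 for LOC_Os12g41450.

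The genes whose profile over the 6 libraries was most like that of OsDCL3b were sought among listed genes with a wild type mean above 0.5 FPKM, by Pearson's r on log2(FPKM + 0.5). All points share the contrast between genotypes, so r is high for any evenly lowered gene, and it is given as a description. The 5 highest were LOC_Os06g40770 and LOC_Os09g38680 (both expressed proteins, r = 0.992 each), the F-box gene LOC_Os03g51760 (OsFBX109, r = 0.991), the armadillo repeat gene LOC_Os09g21120 (r = 0.989) and the auxin-responsive SAUR gene LOC_Os09g26590 (OsSAUR37, r = 0.989). Their levels differed widely. LOC_Os06g40770 had 4.14, 5.36 and 4.88 FPKM in the knockdown and 10.05, 11.84 and 9.24 FPKM in wild type, or 46.2% of wild type, close to the 47.0% of OsDCL3b. LOC_Os09g21120 had 0.18, 0.21 and 0.22 FPKM in the knockdown and 0.52, 0.57 and 0.53 FPKM in wild type, or 37.7% of wild type. As in OsDCL3b, knockdown replicate 1 was the lowest library in all 5 genes.

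The small RNA reads placed in the locus went the other way from its mRNA. In the window of 500 bases at chr10:18367000-18367499 (coordinates as in the files, whose genome build no label or header names), the knockdown library held 17550 RPTM of 21-nt siRNA and the wild type library 6.22 RPTM. RPTM was taken here as reads per 10000000 library reads. For 24-nt siRNA the same window held 7417 RPTM in the knockdown library and 4.98 RPTM in the wild type library. These values correspond to 12914 reads in the knockdown and 5 in wild type at 21 nt, and to 5458 reads in the knockdown and 4 in wild type at 24 nt. The files place the window in the gene, and which exon, intron or UTR it covers was not analysed here. Whether these reads came from the gene itself was not tested.

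With 1 small RNA library of each genotype there is no replicate check, and intervals cover counting error only. The knockdown to wild type ratio was 2821 for 21-nt siRNA (exact binomial 95% interval 1209 to 8690) and 1490 for 24-nt siRNA (exact binomial 95% interval 582 to 5472). The width of the intervals comes from the 5 and 4 wild type reads. In the knockdown library the levels had narrow counting intervals, 17249 to 17855 RPTM at 21 nt and 7222 to 7617 RPTM at 24 nt (exact Poisson, 95%). The wild type intervals were 2.02 to 14.5 RPTM at 21 nt and 1.36 to 12.7 RPTM at 24 nt.

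Both size classes were higher in the knockdown library at this window, with more of the shorter one. Of the 18372 reads of either size in the knockdown library, 70.3% were 21 nt long (exact Clopper-Pearson 95% interval 69.6% to 71.0%), or 2.37 reads of 21 nt for each of 24 nt. In the wild type library 5 of 9 reads were 21 nt long, or 55.6% (exact Clopper-Pearson 95% interval 21.2% to 86.3%), too few to compare the size make-up of the genotypes. Together these reads made up 0.25% of the knockdown library. Other read lengths, strand, phase and the sequences of the reads were not analysed here.

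No other listed window came near these levels. In the 21-nt table the OsDCL3b window was the 1 of 11 windows that was higher in the knockdown, while the other 10 were lower. The highest of those 10 in the knockdown library held 59.8 RPTM, and the OsDCL3b window was 293 times as high. In wild type the order was reversed: OsDCL3b was the lowest of the 11 windows, and the highest of the other windows held 1379 RPTM. The OsDCL3b window took 99.5% of the RPTM summed over listed 21-nt windows in the knockdown library and 0.198% in the wild type library. The other 10 windows were listed as lower in the knockdown, so the reversed order in wild type follows from that selection. The ratio to the next window and these shares rest on the same selection and are a description.

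In the 24-nt table, 26 windows including that of OsDCL3b were higher in the knockdown and 87 were lower. The next highest window in the knockdown library held 383 RPTM, so the OsDCL3b window was 19.4 times as high. It held 58.8% of the RPTM summed over the 113 windows in the knockdown library and 0.0332% in the wild type library. The next largest ratio among windows with reads in both libraries was 36.0, at the gene LOC_Os07g13190, with 134.5 RPTM in the knockdown and 3.73 RPTM in wild type. A further 3 windows had no wild type read, and they reached at most 213 RPTM in the knockdown. Without the OsDCL3b window, the 24-nt windows summed to 5200 RPTM in the knockdown library and 15015 RPTM in the wild type library, and the 21-nt windows to 93.8 RPTM in the knockdown library and 3135 RPTM in the wild type library. The windows are those the authors listed as changed and were selected on these libraries, so the sums do not stand for the whole siRNA of the panicle.

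**Figure D4:**
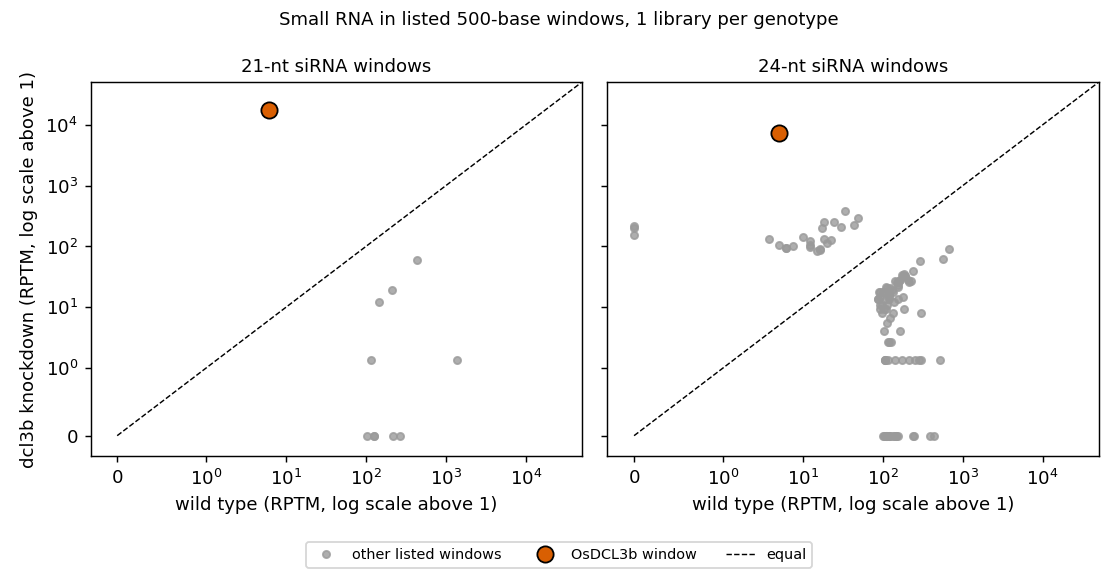
RPTM of each listed window in the knockdown library (vertical axis) and the wild type library (horizontal axis), both on a log scale above 1 and linear below, for 21-nt siRNA (left) and 24-nt siRNA (right). The large point is the OsDCL3b window, at 17550 RPTM (21 nt) and 7417 RPTM (24 nt) in the knockdown library, far above every other listed window in both panels, and the dashed line marks equal values.

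The siRNA reads were narrowly placed along the chromosome as far as the lists show. A single window of the locus was listed, at the same coordinates in both tables, and this was the 1 region that the 2 tables shared. Neither adjoining window was listed. The lowest level of the higher library in any listed window was 103 RPTM at 21 nt and 85.6 RPTM at 24 nt, and the levels of the adjoining windows are not known. The nearest other listed window on chromosome 10 lay 420 kb away in LOC_Os10g33830, a gene with a MATH domain, with 27.2 RPTM of 24-nt siRNA in the knockdown library and 224 RPTM in the wild type library.

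Of 117 genes named by the windows, 7 (5.98%) were also in the lists of changed mRNAs, which hold 3.43% of all genes tested. The difference between these shares was not tested. Of the 7, OsDCL3b was the 1 with more siRNA and less mRNA in the knockdown. In 3 of the other 6 both were higher. The window of LOC_Os06g03650, an expressed protein, also names a neighbouring peroxisomal biogenesis factor gene, so its siRNA cannot be given to either gene alone. This window was next after OsDCL3b at 24 nt in the knockdown library, with 383 RPTM in the knockdown and 33.6 RPTM in wild type, and the mRNA of LOC_Os06g03650 was at 1.41, 1.14 and 0.22 FPKM in the knockdown and listed at 0 in wild type. LOC_Os03g14040, also an expressed protein, had 113 RPTM in the knockdown and 19.9 RPTM in wild type, with mRNA at 68.9 ± 3.34 FPKM in the knockdown and 8.51 ± 1.01 FPKM in wild type (SD, n = 3 each). The ferredoxin-nitrite reductase gene LOC_Os02g52730, whose enzyme reduces nitrite to ammonium in plastids, had 101.9 RPTM in the knockdown and 7.46 RPTM in wild type, with mRNA at 0.673 ± 0.312 FPKM in the knockdown and 0.11 ± 0.03 FPKM in wild type (SD, n = 3 each).

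Both readouts were lower in 2 of the others. The ankyrin gene LOC_Os02g29130 had 21.7 RPTM in the knockdown and 156.8 RPTM in wild type, with mRNA at 0.02, 0.03 and 0.02 FPKM in the knockdown and 0.18, 0.28 and 0.36 FPKM in wild type. The expressed protein gene LOC_Os08g38760 had 8.15 RPTM in the knockdown and 97.0 RPTM in wild type, with mRNA at 0.01, 0.03 and 0.02 FPKM in the knockdown and 0.09, 0.05 and 0.08 FPKM in wild type. The remaining gene, the beta-glucosidase gene LOC_Os03g53790, had less siRNA, at 32.6 RPTM in the knockdown and 190.4 RPTM in wild type, and more mRNA, at 14.16, 4.85 and 11.60 FPKM in the knockdown and 2.97, 6.0 and 2.99 FPKM in wild type, where the genotypes overlapped. None of the other 6 genes was named by a 21-nt window. With 7 genes selected on both readouts, these directions are a description.

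**Figure D5:**
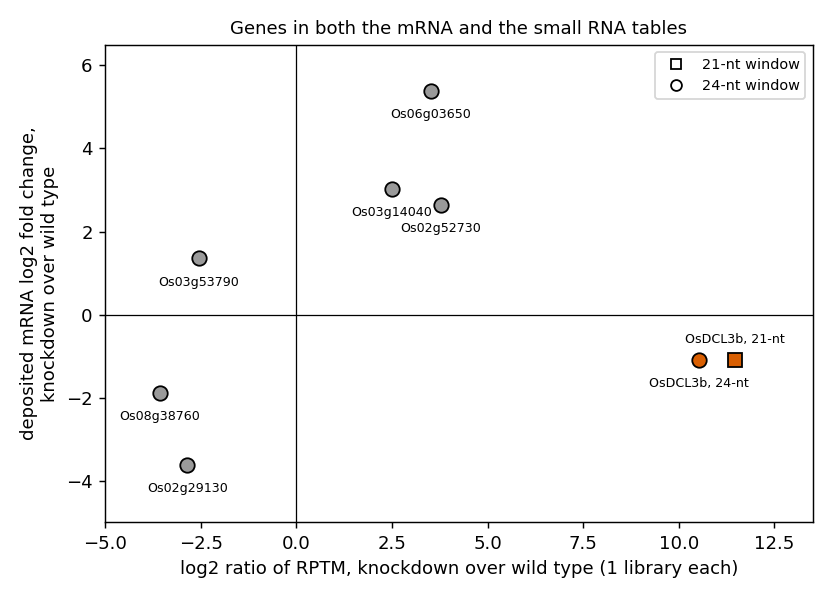
The 7 genes named both by a listed siRNA window and in the lists of changed mRNAs, by the log2 ratio of RPTM of knockdown over wild type (horizontal axis, 1 library each) and the mRNA fold change on the log2 scale from the authors' deposited table (vertical axis). Squares are 21-nt and circles 24-nt windows. OsDCL3b is the gene at the lower right, with log2 ratios of 11.46 (21 nt) and 10.54 (24 nt) and an mRNA log2 fold change of -1.09.

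The other genes of small RNA silencing were looked up next. Of 29 loci written down as Dicer-like, Argonaute and RNA-dependent RNA polymerase genes, 1 was listed, OsDCL3b itself, and 28 were in neither list. The 1 listed is the targeted gene on which this account centres, so only the other 28 can be set against the background. With 3.43% of all genes tested listed in either direction, the absence of these 28 is near the background and says nothing particular of them. Those 28 include the other rice Dicer-like genes, among them OsDCL3a and OsDCL4. By words of the descriptions, 1 listed gene was a Dicer, and 0 were described as Argonaute, RNA-dependent RNA polymerase, double-stranded RNA binding, ribonuclease, RNA polymerase, SNF2 chromatin remodelling, DNA methyltransferase or XS-domain proteins. A gene that is not listed did not pass the authors' threshold or was not tested, and its level is not known. The locus IDs came from general knowledge, and an ID that is wrong also counts as not listed. No label states how reads that match more than 1 Dicer-like gene were assigned.

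RNA helicases, the class of motor domain that Dicer-like proteins also carry, were sought by words of the descriptions, and 1 gene was listed in each direction. Of all genes tested, 1.55% were listed as lower and 1.88% as higher. How many genes tested have such a description is not known, so the count says nothing particular of helicases. The DEAD-box RNA helicase gene LOC_Os06g40020, of a family that unwinds RNA, was at 21.48, 20 and 24.15 FPKM in the knockdown and 10.36, 11.81 and 9.80 FPKM in wild type, with a log2 fold change of 1.04 and an adjusted p of 1.41e-12 in the authors' deposited table. LOC_Os02g02150, described as the helicase HRQ1, was at 0.11, 0.20 and 0.10 FPKM in the knockdown and 0.27, 0.39 and 0.33 FPKM in wild type, with a log2 fold change of -1.28 and an adjusted p of 0.0350 in the authors' deposited table. The genotypes overlapped in neither gene. Such a separation was found in 89.1% of the 530 genes listed as lower and was not counted for those listed as higher.

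Within 200 of OsDCL3b in locus number on chromosome 10, about 20 loci on each side, 2 other genes were listed. With 3.43% of all genes tested listed in either direction, this count is near the background and says nothing particular of the region. How many of these loci were tested is not known. LOC_Os10g34360, described as a putative stilbene synthase, is 70 lower in locus number. It was at 167.8, 331.9 and 231.9 FPKM in the knockdown and 448.8, 563.2 and 462.0 FPKM in wild type. The retrotransposon gene LOC_Os10g34290, 140 lower, was at 0.57, 0.58 and 0.57 FPKM in the knockdown and 0.02, 0.05 and 0.00 FPKM in wild type. One neighbour was thus lower in the knockdown and the other higher. No listed siRNA window named either gene.

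LOC_Os10g34360, under the name PKS1, is also 1 of 16 loci written down as markers of the tapetum and anther. The tapetum is the cell layer that nourishes developing pollen. Of these 16, 10 were listed as lower (1.55% of all genes tested were), 0 as higher (1.88% of all genes tested were) and 6 were in neither list. The 16 loci were written down with earlier results of these data known, so this count is a description and was not tested. None of the 10 stood at 0 in any library. The summed level of the 10 was 538, 1174 and 765 FPKM in knockdown replicates 1, 2 and 3, against 1806, 2048 and 1852 FPKM in wild type replicates 1, 2 and 3. The knockdown sum was 43.4% of the wild type sum, a size that the choice of members largely fixes, since each of the 10 was listed as lower and the 6 unlisted loci are left out. Replicate 2 was the highest of both genotypes for the sum as for OsDCL3b. In bulk panicle RNA, fewer cells of a type and less RNA per cell cannot be told apart. The part of these markers in the level of OsDCL3b was not tested. None of 7 leaf photosynthesis loci was listed. With 3.43% of all genes tested listed in either direction, this is near the background and says nothing particular of these loci.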

How the data were processed

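Messenger RNA was measured in 3 dcl3b knockdown and 3 wild type libraries and small RNA in 1 of each. Per the labels' protocols, Illumina stranded mRNA and small RNA kits were used. Bowtie 1.1.2, TopHat2 2.1.0 and edgeR stand in the submitters' processing notes with no role stated; no label or header gives the genome build or filters. The authors deposited FPKM per library, a log2 fold change, p-values and adjusted p-values for the genes called changed. Per the file headers, the small RNA tables give a signal in RPTM, a fold ratio and p-values for windows; the deposited ratio and p-values were not used. RPTM was taken as reads per 10000000 library reads, an assumption on which the read numbers and library totals rest. All 100 nonzero knockdown and 121 nonzero wild type RPTM values matched whole reads to within 0.01 RPTM. The log2 base was checked on 369 genes above 1 FPKM in both genotypes, where it differed from the log2 ratio of means by at most 0.0326. With position times adjusted p over p, each of the top 10 genes gave 34271 genes tested; at that number 84.0% of the genes listed as higher had a rank whole to within 0.01.

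The re-test used limma 3.58.1 (R 4.3.3) with log2(FPKM + 0.5) of all listed genes with Benjamini-Hochberg adjustment at 0.05, and was tested on simulated data. Such fold changes understate those of low genes. The exact permutation test and exact intervals used SciPy 1.17.1. Genes were named by rule: members of fixed lists, loci within 200 in locus number, the 5 most alike in profile, the 5 nearest in wild type level and the 3 on each side in fold change. The genes in both kinds of table, the window with the next largest ratio and the band of 1.2 times in wild type level were chosen after values were seen. Members and lists were chosen with earlier results of these data known. Alternatives were other pseudocounts, the lowest 25% of genes left out, a replicate block, each library left out, medians for means and unscaled reads. Columns of no mapped sample numbered 0.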

Additional observations from a re-analysis of the deposited data

How the results depend on the processing

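The log2 difference of OsDCL3b kept its direction and a limma adjusted p under 0.05 in all 10 alternatives run. These fits cover only listed genes and reuse the values that put the gene on the list, so they compare settings only. It ranged from -0.66 to -0.57 with 1 library left out (highest limma adjusted p = 0.0193). With the replicate block it was -0.61 (limma adjusted p = 0.0270), and 630 listed genes passed in place of 997. Whether the replicate numbers pair the libraries is not known. Same-numbered deviations correlated at -0.0435, -0.530 and -0.427 for replicates 1, 2 and 3. Deviations from a mean of 3 libraries are tied to one another, so these values cannot settle it. The block is given as a setting only. Over the listed genes, 629 to 1028 passed with 1 library left out. The ratio of knockdown to wild type FPKM was 0.470, between 0.440 and 0.498 with 1 library left out, 0.454 from medians and 0.471 from the deposited log2 fold change. Unscaled read numbers gave siRNA ratios of 2583 at 21 nt and 1365 at 24 nt, inside the counting intervals. The planned change of the floor for a library with no read had no value to give, since both libraries had reads. The wild type counts of 5 and 4 reads limit the siRNA ratios, and 1 small RNA library per genotype leaves the spread between plants unmeasured.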

Other observations

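At 34271 genes tested, the deposited p and adjusted p of OsDCL3b place it at about rank 299 by p-value among all genes tested. Of the genes with a p-value at most that of OsDCL3b in the authors' deposited table, 285 were listed as changed, itself included. The difference of 14 would be genes with as small a p-value that are not in either list. It was computed from rounded values and is a description of the authors' selection.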
